A study of Mus musculus with 10 samples.

Results

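Autophagy and lysosome genes were described in sorted luminal cells of the mouse prostate epithelium. The group was a list of 44 genes, 43 of which were measured on a row of their own among 30142 genes. It was separated into 33 genes of the autophagy machinery, with their cargo receptors and transcription factors, and 10 lysosomal genes. Each gene was found by its symbol on rows that carried no other symbol. Ctsd shared its row with another gene and was not analysed here.

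All mice were males carrying Hoxb13-rtTA and TetO-H2BGFP, an inducible nuclear green reporter under a transactivator driven by Hoxb13, a prostate homeobox gene. All drank doxycycline at 2 mg/ml for 1 week before the sort. Regenerated arrays (n = 4) came from mice castrated at 12 weeks of age, left to regress for 6 weeks and then given testosterone for 4 weeks from silastic implants. Castrated arrays (n = 3) came from mice castrated at 12 weeks and left for 6 weeks, and intact arrays (n = 3) from mice with their testes. The sort took green cells that had CD24 and an intermediate level of CD49f, and discarded those with leukocyte or macrophage surface markers such as CD45 and CD11b. The regenerated mice were also later after surgery than the castrated mice, so testosterone and time cannot be told apart in that comparison. Arrays of a group are labelled as biological replicates, with no statement on how many animals gave the RNA of each, and the p-values rest only on the spread among these samples. Values are log2 intensities, means carry the SD between arrays, and changes carry a standard error (SE) from a limma fit over all 10 arrays. A gene is called changed where its p, adjusted over all 30142 genes by the Benjamini-Hochberg method, is under 0.05.

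Macroautophagy encloses cytoplasm in a double membrane and delivers it to the lysosome. A kinase complex around Ulk1 starts the process, a lipid kinase complex around Becn1 marks the membrane, Atg9 vesicles and WIPI proteins help it grow, and ubiquitin-like conjugation fixes Atg8-family proteins (the LC3 and GABARAP proteins) to it. Lysosomal hydrolases then digest the contents, and the related transcription factors Tfeb and Tfe3 drive many genes of both systems through E-box motifs.

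Promoter sequences from RefSeq (GRCm38.p6), running 250 bases before to 50 after a gene's start, were matched for 35 of the 43 measured genes. Both strands were searched for the E-box core CACGTG and for TCACGTG, the longer form that contains it. CACGTG was present in 7 of the 35 genes (20%), against 8.09% of the 27025 genes with such a window. TCACGTG was present in 5 of the 35 (14.3%), against 4.29% of all genes. The 7 genes were Atg14, Atg3, Atg5, Atg7, Ctsl, Gaa and Lamp1. None of the 9 machinery genes called changed after castration held CACGTG in its window. With 8.09% of all genes holding it, 9 genes are too few for that absence to tell them apart. The motif was present in 4 of 19 machinery genes not called and 3 of 7 lysosomal genes with a window. The difference between called and other genes was not tested. The windows of Wipi1, Atg9a and Atg4a are shown because these 3 genes kept their castration call under each of the 20 alternatives tried, and those of Lamp1 and Gaa because they hold the motif. Atg4a has a window for each of its 2 listed starts. Capitals mark TCACGTG on either strand (CACGTGA where it lies on the other strand). Windows are written 5′ to 3′ on the gene's strand.
Wipi1 chr11:109611340-109611639 (-): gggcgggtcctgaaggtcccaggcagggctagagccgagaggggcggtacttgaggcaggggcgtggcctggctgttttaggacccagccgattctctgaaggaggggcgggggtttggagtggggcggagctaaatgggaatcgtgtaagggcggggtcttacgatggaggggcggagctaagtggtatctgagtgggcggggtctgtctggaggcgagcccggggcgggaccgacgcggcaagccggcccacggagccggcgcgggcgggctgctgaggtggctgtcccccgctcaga
Atg9a chr1:75191961-75192260 (-): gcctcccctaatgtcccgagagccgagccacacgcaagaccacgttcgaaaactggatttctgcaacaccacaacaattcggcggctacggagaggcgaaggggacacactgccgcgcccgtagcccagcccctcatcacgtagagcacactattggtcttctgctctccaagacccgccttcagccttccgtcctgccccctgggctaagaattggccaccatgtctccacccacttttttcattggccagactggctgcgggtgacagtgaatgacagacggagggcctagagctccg
Atg4a chrX:140953595-140953894 (+): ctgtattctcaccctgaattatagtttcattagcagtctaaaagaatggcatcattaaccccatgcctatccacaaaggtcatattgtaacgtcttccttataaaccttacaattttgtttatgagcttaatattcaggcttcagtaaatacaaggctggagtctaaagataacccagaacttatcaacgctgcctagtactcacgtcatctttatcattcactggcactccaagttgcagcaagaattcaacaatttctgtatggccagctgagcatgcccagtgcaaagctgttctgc
Atg4a chrX:140956657-140956956 (+): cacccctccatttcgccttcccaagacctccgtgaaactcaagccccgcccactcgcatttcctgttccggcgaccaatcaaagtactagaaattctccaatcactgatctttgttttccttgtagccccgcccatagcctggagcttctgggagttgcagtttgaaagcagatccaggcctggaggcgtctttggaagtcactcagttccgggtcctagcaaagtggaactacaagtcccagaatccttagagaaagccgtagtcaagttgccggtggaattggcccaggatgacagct
Lamp1 chr8:13158911-13159210 (+): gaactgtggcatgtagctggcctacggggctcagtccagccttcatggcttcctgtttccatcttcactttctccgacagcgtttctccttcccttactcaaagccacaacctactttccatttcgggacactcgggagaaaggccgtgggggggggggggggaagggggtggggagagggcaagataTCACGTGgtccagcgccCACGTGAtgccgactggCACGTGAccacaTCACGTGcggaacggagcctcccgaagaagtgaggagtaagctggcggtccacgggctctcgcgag
Gaa chr11:119267713-119268012 (+): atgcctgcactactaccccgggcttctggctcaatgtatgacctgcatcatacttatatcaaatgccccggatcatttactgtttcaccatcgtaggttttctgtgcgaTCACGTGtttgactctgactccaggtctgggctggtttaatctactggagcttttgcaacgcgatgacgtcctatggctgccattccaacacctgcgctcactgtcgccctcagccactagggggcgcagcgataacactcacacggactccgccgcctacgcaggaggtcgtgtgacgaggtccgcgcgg
The Lamp1 window held 4 matches, whose CACGTG cores began 61, 45, 28 and 15 bases before the start, and the Gaa window held 1, whose core began 140 bases before it. A match describes letters only, and factor binding was not measured.

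Regenerated replicate 4 stood apart from the other arrays of its group. It had the lowest regenerated value for 32 of the 43 genes (74.4%), against 48.1% of the 14582 genes whose highest group mean lay above the 95th percentile of background control rows, at 4.76. It was the lowest for all 10 lysosomal genes. The log2 values of Hoxb13, whose promoter drives the reporter, were 10.27, 9.61, 9.76 and 8.26 in regenerated replicates 1 to 4, against 7.93, 7.75 and 7.54 in castrated and 10.54, 10.19 and 10.43 in intact arrays. Of the other 5 luminal markers, the keratins Krt8 (1.37, adjusted p = 0.0364) and Krt18 (1.41, adjusted p = 0.00119) and the sort marker Cd24a (1.72, adjusted p = 0.00358) were called higher in castrated than in intact arrays, opposite to Hoxb13, while Epcam and the secreted protein Pbsn were not called. In regenerated against castrated arrays Pbsn (1.55, adjusted p = 0.000871) and Hoxb13 (1.74, adjusted p = 0.0321) were called higher. Krt8 (-2.05, adjusted p = 0.00517) and Krt18 (-1.69, adjusted p = 0.00039) were called lower there, and Cd24a and Epcam were not called.

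The mean level of 14 myeloid markers was 4.39 to 4.98 in regenerated, 4.72 to 5.19 in castrated and 4.33 to 4.63 in intact arrays. Of the 14, Cd14 (1.95, adjusted p = 0.00798) and Itgam were called higher in castrated than in intact arrays. The change was positive for 13 of the 14 and negative for 1, where 17626 of all 30142 genes had a positive change. Every castrated array lay above every intact array for 5 of the 14, against 17.4% of all genes. Itgam, at 4.42 or lower, and Ptprc, Adgre1 and Csf1r, at 3.93 or lower, lay under the background percentile in all 10 arrays, and Cd68 lay above it at 6.92 to 9.70 without being called. For 6 lymphocyte markers the mean was 4.23 to 4.52 in regenerated, 4.81 to 5.20 in castrated and 4.18 to 4.61 in intact arrays. Cd3e alone carried that difference, with 6.56, 5.73, 5.94 and 7.38 in regenerated, 11.32, 11.76 and 8.26 in castrated and 7.58, 8.18 and 5.40 in intact arrays, and it was called lower in regenerated than in castrated arrays (-4.04, adjusted p = 0.0253). The other 5 stayed under the background percentile.

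For 4 basal markers the mean was 6.28 to 7.03 in regenerated, 6.31 to 6.49 in castrated and 5.79 to 5.95 in intact arrays. Krt5 and Trp63 were at 5.41 or lower throughout, Krt14 was called higher in castrated than in intact arrays (0.52, adjusted p = 0.046), and Krt15 lay between 9.80 and 14.02, lowest in the 3 intact arrays. For 5 stromal markers the mean was 5.34 to 5.59 in regenerated, 4.53 to 5.12 in castrated and 5.48 to 5.74 in intact arrays. Only Dcn was above the background percentile, and it was called lower in castrated than in intact arrays (-4.70, adjusted p = 0.00143) and higher in regenerated than in castrated arrays (3.83, adjusted p = 0.00394). The means of 4 endothelial and 3 neuroendocrine markers stayed at 3.91 or lower in every array. For 4 seminal vesicle markers the mean was 5.03 to 13.57 in regenerated arrays, highest in replicate 4, 7.73 to 8.09 in castrated and 8.63 to 13.12 in intact arrays. Of these, Svs2, Svs4 and Svs5 lay between 4.57 and 7.10 in castrated arrays, with differences of -5.14, -3.27 and -5.87 against intact arrays. Pate4 lay between 13.92 and 15.63 in castrated arrays and differed by 1.97. None of the 4 was called. The part of these cell markers and of Hoxb13 in the results was not tested, and fewer cells of a type and less RNA per cell cannot be told apart in such bulk samples.

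The first comparison asked how these genes stood after 6 weeks without testicular androgen. In castrated arrays 8 of the 33 machinery genes fell against intact arrays and 1 rose, while none of the 10 lysosomal genes was called. Of all 30142 genes 8.01% were called in either direction. The 8 were 24.2% of the machinery genes, against 3.19% of all genes called lower and 6.3% of the genes above the background percentile. The 1 that rose was 3.03% of the machinery genes, against 4.82% of all genes called higher and 8.9% of those above the background percentile. The machinery median was -0.29 on the log2 scale and that of all genes 0.04. Every castrated array lay below every intact array for 13 of the 33, against 11.5% of all genes, and above for 3, against 17.4%. Among the 14582 genes above the background percentile, this separation was found below for 2678 and above for 3592. Without regenerated replicate 4, which enters only through the shared spread, 11 machinery genes were called lower and 1 higher, among 3271 calls over all genes in place of 2414. Without intact replicate 1 or 2 the machinery calls numbered 3 each, and without castrated replicate 1, 2 or 3 they numbered 6, 4 and 5. Calls over all genes without these intact or castrated arrays are not given here. The plot of log2 values for the called machinery genes shows every array.

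**Figure D1:**
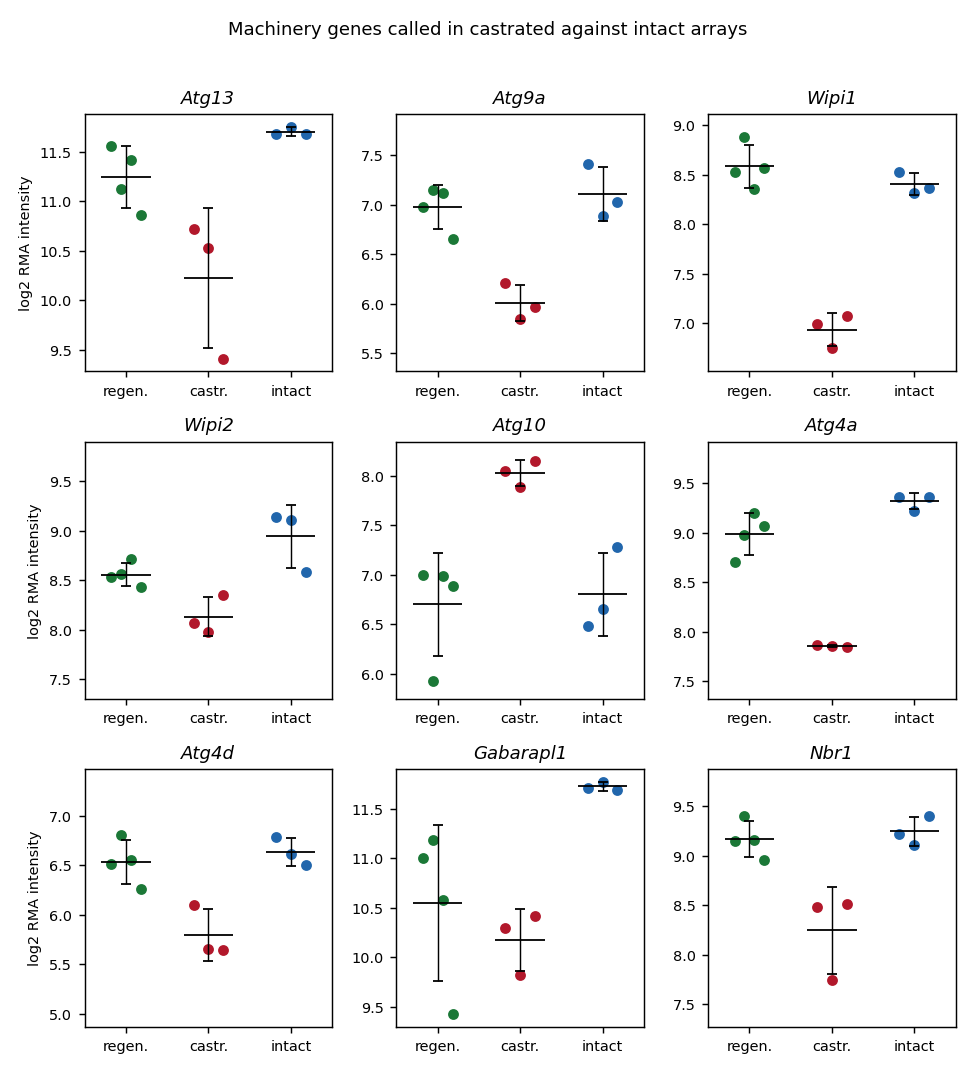
Log2 intensity (vertical axis) of the 9 autophagy machinery genes called changed between castrated and intact arrays, with 1 point per array and a bar at each group mean, for regenerated, castrated and intact arrays. Castrated points lie below all intact points in the 8 genes that fell and above them in Atg10.

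Among genes of membrane growth, Wipi1, a WD-repeat protein that binds the lipid mark on the forming membrane (row TC1100003992.mm.1), had log2 values of 8.53, 8.88, 8.36 and 8.57 in regenerated, 6.99, 6.75 and 7.07 in castrated and 8.53, 8.32 and 8.37 in intact arrays. Castrated arrays lay below all others, and regenerated and intact arrays overlapped. Wipi1 fell by 2.77-fold in castrated against intact arrays (log2 change -1.47 ± 0.19 SE, adjusted p = 0.00154). It was 3.14-fold higher in regenerated than in castrated arrays (1.65 ± 0.18 SE, adjusted p = 0.000747).

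Atg9a, a lipid scramblase carried on the vesicles that seed the membrane (TC0100002602.mm.1), had 6.98, 7.15, 7.12 and 6.66 in regenerated, 6.21, 5.85 and 5.97 in castrated and 7.41, 6.89 and 7.03 in intact arrays. The castrated arrays were again below all others, and under the highest background control value of 6.40. Atg9a fell by 2.14-fold in castrated against intact arrays (-1.10 ± 0.20 SE, adjusted p = 0.00791) and was 1.95-fold higher in regenerated than in castrated arrays (0.96 ± 0.18 SE, adjusted p = 0.0146). The second call ended without castrated replicate 2 (adjusted p = 0.0713) or 3 (adjusted p = 0.0527). Wipi2, the relative of Wipi1 that recruits Atg16l1, had 8.53, 8.56, 8.71 and 8.43 in regenerated, 8.07, 7.98 and 8.35 in castrated and 9.14, 9.11 and 8.58 in intact arrays. Its castrated arrays lay below the intact ones by less than for Wipi1 (-0.81 ± 0.21 SE, adjusted p = 0.0451). That call ended on leaving out any castrated array, intact replicate 1 or 2, or regenerated replicate 1, 2 or 3, with adjusted p between 0.058 and 0.18. Atg2a, Atg2b and Atg9b, the other 3 genes of this group, were not called, and Atg9b lay under the background percentile in every array.

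Of the Atg4 proteases, which trim Atg8-family proteins and release them from membranes, Atg4a (TC0X00001390.mm.1) had 8.70, 8.98, 9.20 and 9.07 in regenerated, 7.86, 7.85 and 7.84 in castrated and 9.36, 9.22 and 9.36 in intact arrays. The 3 groups did not overlap, with castrated lowest and intact highest. Atg4a fell by 2.76-fold in castrated against intact arrays (-1.47 ± 0.19 SE, adjusted p = 0.00145). In regenerated arrays it was 2.2-fold higher than in castrated arrays (1.14 ± 0.18 SE, adjusted p = 0.00518), and 0.33 below intact arrays (95% interval -0.72 to 0.07, adjusted p = 0.606).

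Atg4d, a more distant member of the family, had 6.51, 6.80, 6.55 and 6.26 in regenerated, 6.10, 5.65 and 5.64 in castrated and 6.78, 6.61 and 6.50 in intact arrays. Castrated arrays were below all others by a smaller step than for Atg4a, and under the highest background control value of 6.40. The change was -0.83 ± 0.19 SE in castrated against intact arrays (adjusted p = 0.0212) and 0.73 ± 0.17 SE in regenerated against castrated arrays (adjusted p = 0.0392). The castration call ended without intact replicate 1 (adjusted p = 0.0976) or 2 (0.0719) or castrated replicate 2 (0.0822) or 3 (0.0764). Leaving out any array other than castrated replicate 1 or regenerated replicate 4 ended the regeneration call, with adjusted p between 0.0501 and 0.148. The remaining proteases, Atg4b and Atg4c, changed by -0.01 and -0.00 in castrated against intact arrays (adjusted p = 0.991 and 0.994).

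In the initiation complex, Atg13, the adaptor that joins Ulk1 to its partners (TC0200004126.mm.1), had 11.56, 11.12, 11.42 and 10.86 in regenerated, 10.72, 10.53 and 9.41 in castrated and 11.68, 11.75 and 11.68 in intact arrays. The groups did not overlap, and castrated replicate 3 was lowest by more than 1 log2 unit. Atg13 fell by 2.8-fold in castrated against intact arrays (-1.49 ± 0.34 SE, adjusted p = 0.0239). Leaving out intact replicate 1, 2 or 3 ended that call (adjusted p = 0.0862, 0.086 and 0.0568). It was 1.02 ± 0.32 SE higher in regenerated than castrated arrays without passing the test (adjusted p = 0.104). The kinases Ulk1 and Ulk2 and the scaffold Rb1cc1 were not called. Atg101, the binding partner of Atg13, had 8.89, 9.56, 9.88 and 9.39 in regenerated, 9.69, 9.68 and 8.33 in castrated and 10.98, 10.76 and 9.22 in intact arrays. The groups overlapped, and the difference of -1.09 ± 0.51 SE in castrated against intact arrays had an adjusted p of 0.261.

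The lipid kinase complex had no called gene. Becn1, its scaffold, had 8.91, 8.95, 9.23 and 8.43 in regenerated, 8.30, 8.18 and 7.97 in castrated and 9.05, 8.98 and 8.87 in intact arrays. Castrated arrays were below all others, with a difference of -0.82 ± 0.23 SE against intact arrays (adjusted p = 0.0559, or 0.0171 without regenerated replicate 4). Atg14, which directs the complex to autophagy, had 7.08, 6.97, 6.90 and 5.70 in regenerated, 6.68, 6.88 and 6.16 in castrated and 7.36, 6.73 and 7.09 in intact arrays, with overlapping groups (-0.49 in castrated against intact arrays, adjusted p = 0.508).

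Among conjugation enzymes, Atg10, which attaches Atg12 to Atg5 (TC1300002407.mm.1), moved the other way. It had 7.0, 5.93, 6.99 and 6.89 in regenerated, 8.05, 7.89 and 8.15 in castrated and 6.48, 6.66 and 7.28 in intact arrays. Castrated arrays were above all others, and regenerated and intact arrays overlapped. Atg10 rose by 2.33-fold in castrated against intact arrays (1.22 ± 0.31 SE, adjusted p = 0.0361) and fell by 2.51-fold in regenerated against castrated arrays (-1.33 ± 0.29 SE, adjusted p = 0.0261). The first call ended without intact replicate 1 (adjusted p = 0.151) or 2 (0.126) or castrated replicate 1 (0.0859), 2 (0.0761) or 3 (0.105), and the second without castrated replicate 1 (0.0721), 2 (0.0674) or 3 (0.0885).

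The other 6 conjugation genes were not called. Atg5, the acceptor of Atg12, had 12.09, 11.81, 12.13 and 10.35 in regenerated, 11.07, 10.68 and 11.20 in castrated and 12.21, 12.07 and 12.29 in intact arrays. Every castrated array was below every intact array, and regenerated replicate 4 was the lowest of all. Atg5 changed by -1.21 in castrated against intact arrays (adjusted p = 0.122, or 0.00468 without regenerated replicate 4). The activating enzyme Atg7, the conjugating enzyme Atg3 and Atg12 itself changed by 0.02, 0.07 and -0.05, with adjusted p of 0.967, 0.934 and 0.92.

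In the Atg8 family, 1 of 5 genes was called. Gabarapl1, a GABARAP protein (TC0600001536.mm.1), had 11.00, 11.18, 10.58 and 9.42 in regenerated, 10.29, 9.82 and 10.41 in castrated and 11.71, 11.77 and 11.69 in intact arrays. Both other groups lay below the intact arrays and overlapped each other. It fell by 2.93-fold in castrated against intact arrays (-1.55 ± 0.41 SE, adjusted p = 0.043), a call that ended on leaving out any intact or castrated array or regenerated replicate 3, with adjusted p between 0.0632 and 0.142. Map1lc3b, the LC3 protein used as an autophagosome marker, had 8.22, 8.17, 8.25 and 7.87 in regenerated, 7.66, 7.64 and 7.87 in castrated and 8.65, 8.48 and 8.12 in intact arrays. Its change of -0.69 in castrated against intact arrays was not called (adjusted p = 0.0664, or 0.0391 without regenerated replicate 4). Gabarap and Gabarapl2 changed by 0.06 and -0.22 (adjusted p = 0.904 and 0.661), and Map1lc3a lay under the background percentile in every array.

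Of the cargo receptors, Nbr1, which links ubiquitinated cargo to Atg8 proteins (TC1100001660.mm.1), had 9.15, 9.40, 9.16 and 8.96 in regenerated, 8.48, 7.74 and 8.51 in castrated and 9.22, 9.11 and 9.40 in intact arrays. Castrated arrays were below all others, with replicate 2 lowest. Nbr1 fell by 2-fold in castrated against intact arrays (-1.0 ± 0.25 SE, adjusted p = 0.0342) and was 1.9-fold higher in regenerated than in castrated arrays (0.92 ± 0.23 SE, adjusted p = 0.0482). The castration call ended without intact replicate 1 (adjusted p = 0.111), 2 (0.0833) or 3 (0.0924), castrated replicate 2 (0.11) or regenerated replicate 3 (0.0535). Regenerated replicate 4 was the only array without which the regeneration call held, and the adjusted p was 0.0609 to 0.171 without each of the other 9. Sqstm1, the receptor p62, had 11.84, 13.45, 12.80 and 12.54 in regenerated, 12.42, 11.75 and 12.43 in castrated and 13.23, 12.65 and 12.91 in intact arrays. Its regenerated arrays overlapped both other groups, and it was not called (-0.73 in castrated against intact arrays, adjusted p = 0.322).

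Neither transcription factor was called. Tfeb had 4.60, 4.43, 4.61 and 4.63 in regenerated, 4.57, 4.57 and 4.53 in castrated and 4.59, 4.51 and 4.48 in intact arrays, all under the background percentile of 4.76, so its level was not distinguished from background. Tfe3 had 5.76, 5.80, 5.71 and 5.47 in regenerated, 5.91, 5.93 and 5.67 in castrated and 6.09, 5.86 and 5.79 in intact arrays, with overlapping groups and a change of -0.08 in castrated against intact arrays (adjusted p = 0.835).

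The plot of changes sets castration and regeneration side by side for each gene. Both use the same castrated arrays.

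**Figure D2:**
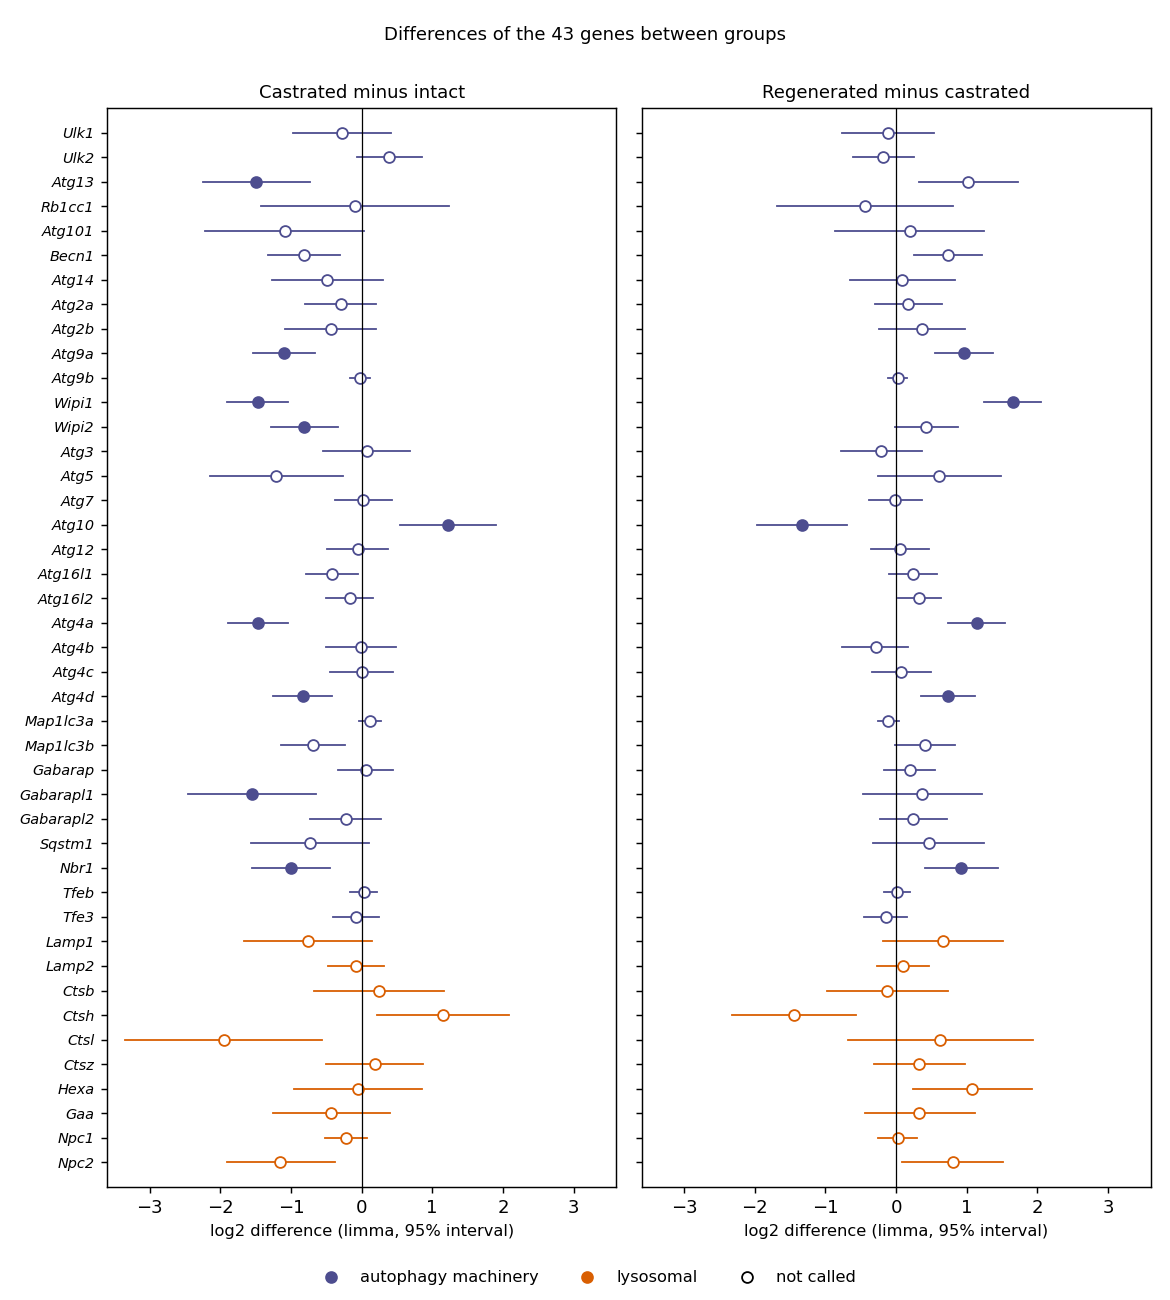
Log2 difference with its 95% interval (horizontal axis) for the 33 machinery genes and the 10 lysosomal genes, for castrated minus intact arrays (left) and regenerated minus castrated arrays (right), with filled points for called changes. Castrated minus intact points reach -1.55 (Gabarapl1) among the machinery genes and -1.95 (Ctsl, not called) among the lysosomal genes, and every lysosomal point is open in both panels.

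The lysosomal genes did not pass the test in castrated against intact arrays. limma called 0 of 10, where 8.01% of all genes were called, with an unadjusted p under 0.05 for 3 (Ctsh, Ctsl and Npc2). That p was under 0.05 for 6236 of all 30142 genes and 4951 of the 14582 above the background percentile. Their changes ran from -1.95 to 1.15 with a median of -0.15, against 0.04 for all genes. Without regenerated replicate 4 these 3 genes were called, Ctsl at an adjusted p of 0.00487, Npc2 at 0.0235 and Ctsh at 0.048. The difference between machinery and lysosomal genes was not tested.

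Ctsl, the cysteine protease cathepsin L, had 10.39, 10.44, 10.89 and 8.10 in regenerated, 9.41, 8.84 and 9.75 in castrated and 11.62, 11.57 and 10.67 in intact arrays. Castrated arrays were below intact arrays, and regenerated replicate 4 was the lowest of all 10. The difference was -1.95 ± 0.63 SE in castrated against intact arrays (adjusted p = 0.0933). Ctsh, the aminopeptidase cathepsin H, had 11.72, 11.55, 12.23 and 10.58 in regenerated, 12.96, 13.28 and 12.67 in castrated and 11.43, 11.53 and 12.49 in intact arrays. Here castrated arrays were above all others, opposite to Ctsl. Ctsh differed by 1.15 ± 0.42 SE in castrated against intact arrays (adjusted p = 0.142) and by -1.45 ± 0.40 SE in regenerated against castrated arrays (adjusted p = 0.0667).

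Npc2, which carries cholesterol inside the lysosome, had 9.23, 9.21, 9.77 and 8.41 in regenerated, 8.51, 8.04 and 8.52 in castrated and 9.59, 9.87 and 9.06 in intact arrays. Castrated arrays were below intact arrays (-1.15 ± 0.35 SE, adjusted p = 0.0727), and regenerated arrays overlapped both. Npc1, its membrane partner, had 6.62, 6.45, 6.50 and 6.31 in regenerated, 6.46, 6.42 and 6.46 in castrated and 6.74, 6.61 and 6.66 in intact arrays, a change of -0.22 in castrated against intact arrays (adjusted p = 0.416).

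Hexa, the alpha subunit of beta-hexosaminidase, had 9.25, 9.89, 9.65 and 8.39 in regenerated, 8.75, 7.58 and 8.32 in castrated and 8.18, 8.05 and 8.59 in intact arrays. Regenerated replicates 1 to 3 were above every castrated and intact array, and replicate 4 was within their range. The difference of 1.08 ± 0.38 SE in regenerated against castrated arrays had an adjusted p of 0.15, or 0.0283 without regenerated replicate 4. The cathepsins Ctsb and Ctsz and the glycogen-digesting glucosidase Gaa changed by 0.24, 0.19 and -0.43 in castrated against intact arrays, with adjusted p of 0.814, 0.807 and 0.596.

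The abundant membrane proteins that line the lysosome were not called either. Lamp1 had 12.91, 13.40, 13.02 and 11.89 in regenerated, 12.39, 11.43 and 12.62 in castrated and 13.09, 12.65 and 12.99 in intact arrays (-0.76 in castrated against intact arrays, adjusted p = 0.342). Lamp2 lay between 15.35 and 15.84 in all 10 arrays.

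**Figure D3:**
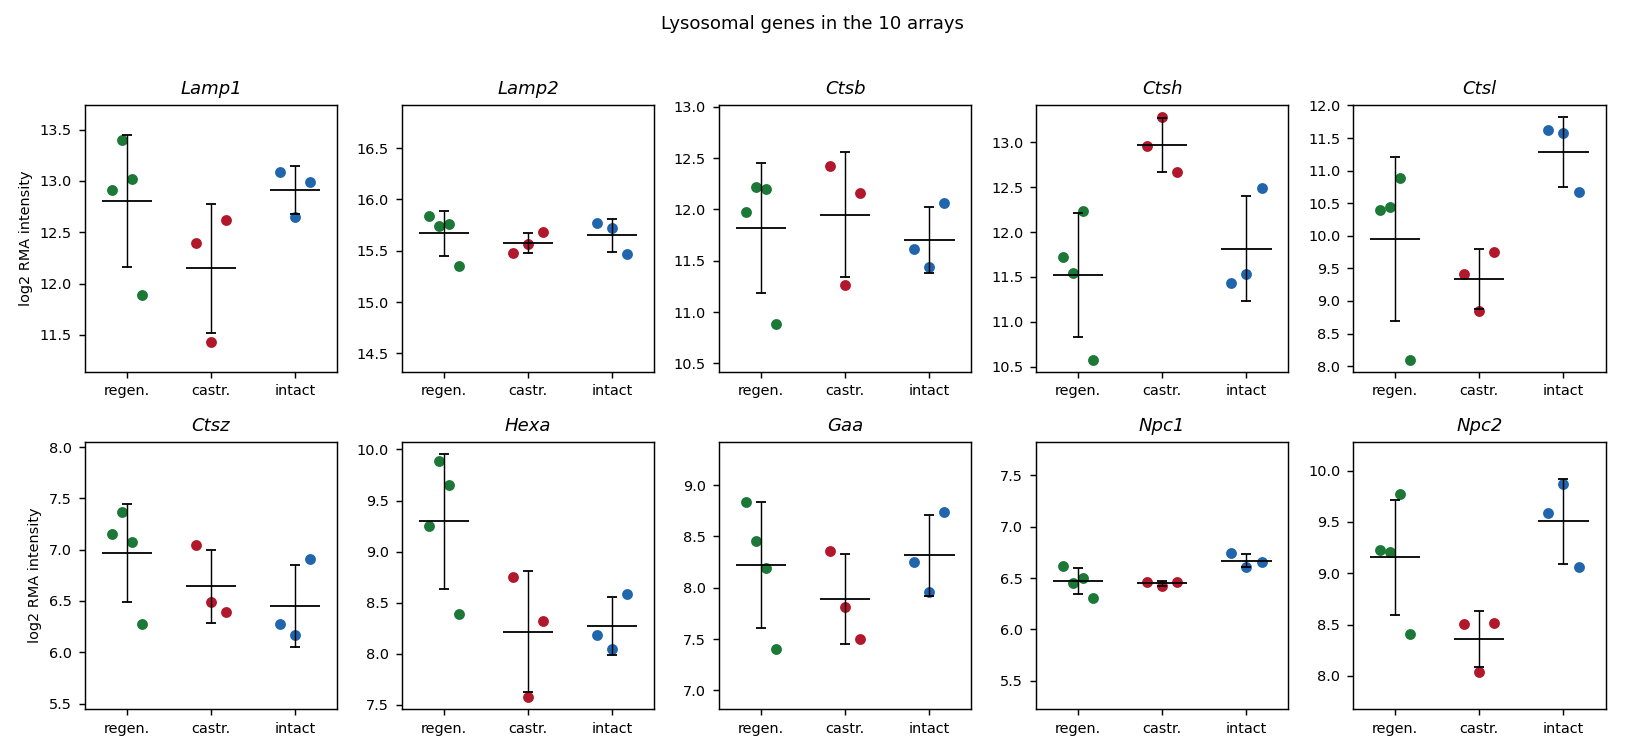
Log2 intensity (vertical axis) of the 10 lysosomal genes, with 1 point per array and a bar at each group mean, for regenerated, castrated and intact arrays. Regenerated replicate 4 is the lowest regenerated point in all 10 panels.

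The second comparison asked how the genes stood after testosterone was given back. In regenerated arrays 5 machinery genes were higher than in castrated arrays, namely Wipi1, Atg4a, Atg9a, Atg4d and Nbr1, and 1 was lower, Atg10. Of all genes 4.98% were called in either direction. The 5 were 15.2% of the machinery genes, against 1.97% of all genes called higher and 3.85% of those above the background percentile. The 1 was 3.03%, against 3.01% of all genes called lower and 5.69% of those above the background percentile. The machinery median was 0.19, against -0.01 for all genes. Every regenerated array lay above every castrated array for 10 machinery genes, against 6.53% of all genes, and below for 1, against 9.51%. Among the 14582 genes above the background percentile, this separation was found above for 1445 and below for 2188. The 6 called genes are all among the 9 called between castrated and intact arrays, and both comparisons use the same castrated arrays. The other 3 were Atg13, Gabarapl1, with a regenerated against castrated difference of 0.37 ± 0.38 SE (adjusted p = 0.675), and Wipi2, with 0.42 ± 0.20 SE (adjusted p = 0.289).

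limma called 0 of the 10 lysosomal genes between regenerated and castrated arrays, with an unadjusted p under 0.05 for 3 (Ctsh, Hexa and Npc2) and a median change of 0.33. Of all 30142 genes 4.98% were called, and 5707 had an unadjusted p under 0.05. Of the 14582 genes above the background percentile, 4458 had such a p. Without regenerated replicate 4, 8 machinery genes were called, 7 of them higher, and 2 lysosomal genes, Hexa (adjusted p = 0.0283) and Npc2 (0.0474), both higher. Becn1 (0.0174) and Atg5 (0.0146) were the machinery genes gained. Without castrated replicate 2 or 3, 2 machinery genes were called. The share of all genes called in these fits is not given here, so the counts show only how far the calls moved. In castrated against intact arrays, leaving out regenerated replicate 4 also raised the calls over all genes.

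Between regenerated and intact arrays limma called 0 of the 43 genes, where 0.0365% of all genes were called. An unadjusted p under 0.05 was found for 3019 of all 30142 genes and 2184 of the 14582 above the background percentile. Among the 43 it was found for 3. The 3 were Gabarapl1 at -1.18 (95% interval -2.02 to -0.34, adjusted p = 0.317), Ctsl at -1.33 (-2.64 to -0.03, adjusted p = 0.487) and Hexa at 1.02 (0.18 to 1.86, adjusted p = 0.393). Atg13, Atg4a and Gabarapl1 had all regenerated arrays below all intact arrays, against 3.23% of all genes and 677 of the 14582 above the background percentile. For Wipi1 the difference was 0.18 (95% interval -0.22 to 0.58, adjusted p = 0.843) and for Atg9a -0.13 (-0.54 to 0.28, adjusted p = 0.908). These intervals bound the differences and do not show equal levels.

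**Figure D4:**
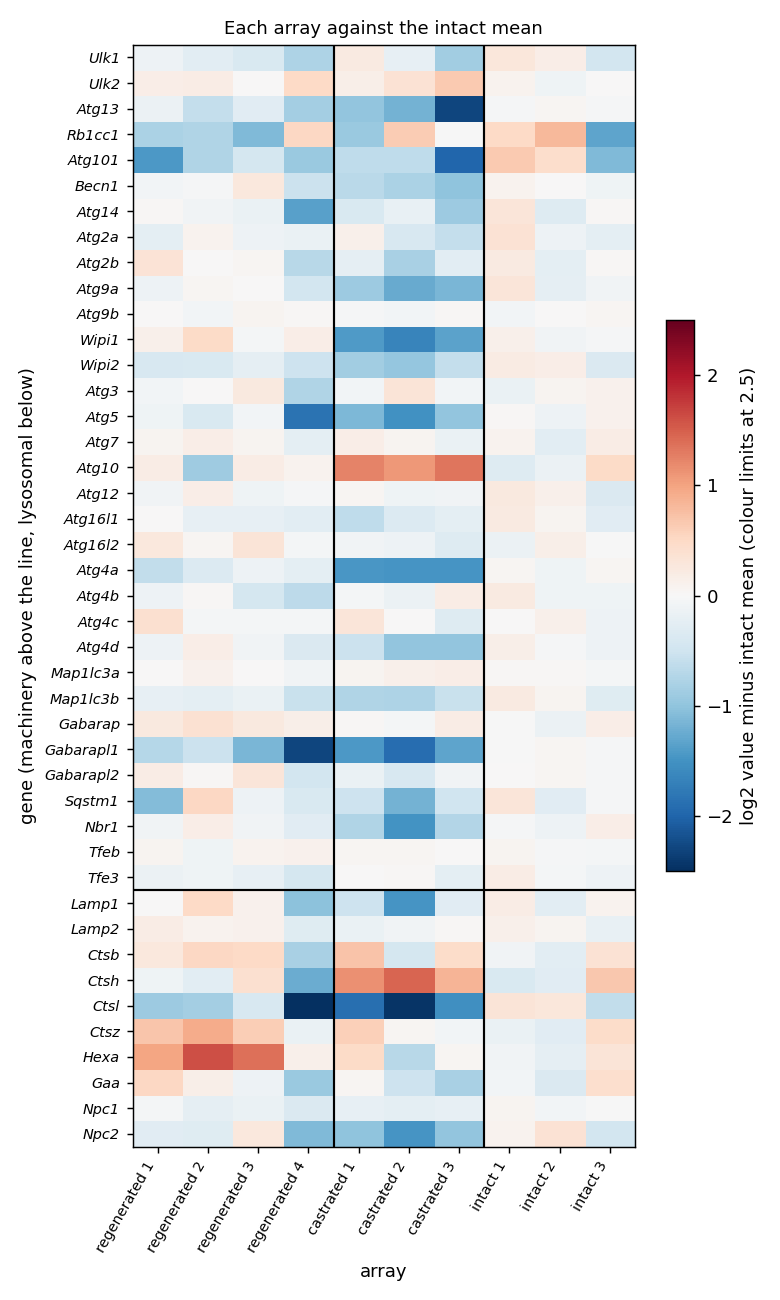
Log2 value minus the intact mean (colour, limited to -2.5 to 2.5) for each of the 43 genes (rows) in each array (columns: regenerated, castrated, intact). Castrated columns are low in the 8 machinery genes that fell, and regenerated replicate 4 is the lowest regenerated column for all 10 lysosomal genes.

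Over whole arrays, the median difference of the 33 machinery genes from their intact means was -0.08, -0.02, -0.08 and -0.37 in regenerated, -0.23, -0.36 and -0.32 in castrated and 0.10, -0.02 and -0.04 in intact arrays. Regenerated replicate 4, at -0.37, was close to the lowest castrated array, at -0.36. Its mean machinery level of 7.82 lay among the castrated levels of 7.87, 7.75 and 7.74. For the 10 lysosomal genes the median difference was 0.10, 0.12, 0.19 and -0.87 in regenerated, -0.06, -0.48 and -0.14 in castrated and 0.00, -0.24 and 0.20 in intact arrays. Here regenerated replicate 4 was the lowest of all 10 arrays.

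Other genes of the pathways were taken from broader lists. Of 28 further autophagy genes, 3 fell in castrated against intact arrays (10.7%) and none rose. Of all genes 3.19% were called lower and 4.82% higher, and of those above the background percentile 6.3% and 8.9%. The 3 that fell were Epg5, a tether for fusion with the lysosome (-1.05 ± 0.16 SE, adjusted p = 0.0032), Tollip, a ubiquitin-binding adaptor (-1.15 ± 0.26 SE, adjusted p = 0.0236), and Mitf, a transcription factor related to Tfeb (-0.95 ± 0.18 SE, adjusted p = 0.0107). The Tollip call ended without intact replicate 1 (adjusted p = 0.106) or 2 (0.084) or castrated replicate 2 (0.0929) or 3 (0.0601), and the Mitf call without intact replicate 2 (0.0531). The list's median was -0.29, against 0.04 for all genes. limma called 0 of the 28 between regenerated and castrated arrays, where 4.98% of all genes were called, with an unadjusted p under 0.05 for 5. That p was under 0.05 for 5707 of all 30142 genes and 4458 of the 14582 above the background percentile.

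Of 30 further hydrolase genes, 3 rose and 3 fell in castrated against intact arrays, with a median of -0.15. Each 3 is 10% of the list. Of all genes 4.82% were called higher and 3.19% lower, and of those above the background percentile 8.9% and 6.3%, so the share that rose was near that of genes above background. Ctso, cathepsin O, had 5.60, 5.95, 6.0 and 6.12 in regenerated, 6.72, 7.53 and 6.68 in castrated and 5.40, 5.12 and 5.46 in intact arrays, with no overlap between the groups. It rose in castrated against intact arrays (1.65 ± 0.24 SE, adjusted p = 0.00227) and fell in regenerated against castrated arrays (-1.06 ± 0.22 SE, adjusted p = 0.0218). The second call ended without castrated replicate 2 (0.0542) or regenerated replicate 2 (0.0571). Ctss, cathepsin S, a protease of antigen-presenting cells, also rose in castrated arrays (1.97 ± 0.40 SE, adjusted p = 0.014, with 0.0632 and 0.064 without intact replicates 1 and 2). Whether myeloid cells had a part in the Ctss change was not tested.

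Galns, a sulfatase that digests keratan sulfate, had 6.63, 6.84, 6.58 and 6.72 in regenerated, 5.62, 5.20 and 5.75 in castrated and 7.76, 6.98 and 7.59 in intact arrays. It fell in castrated against intact arrays (-1.92 ± 0.22 SE, adjusted p = 0.000781) and was higher in regenerated than in castrated arrays (1.17 ± 0.21 SE, adjusted p = 0.00962). Fuca1, the lysosomal fucosidase, fell in castrated arrays (-1.77 ± 0.36 SE, adjusted p = 0.0137), with adjusted p of 0.0635 and 0.0513 without intact replicates 1 and 2. In regenerated against castrated arrays it was higher by 1.67 ± 0.33 SE (adjusted p = 0.0183), a call that ended without castrated replicate 2 (0.0628) or 3 (0.0664) or regenerated replicate 2 (0.0586) or 3 (0.0503). Neu1, a sialidase, was also higher in regenerated than in castrated arrays (0.92 ± 0.19 SE, adjusted p = 0.0219), with adjusted p of 0.083 and 0.0849 without castrated replicates 2 and 3. In that comparison 3 of the 30 were called higher (10%, where 1.97% of all genes and 3.85% of those above the background percentile were). The 1 called lower, Ctso, was 3.33% of the list, where 3.01% of all genes and 5.69% of those above the percentile were.

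Of 19 further lysosomal membrane and sorting genes, 3 fell in castrated against intact arrays (15.8%, where 3.19% of all genes and 6.3% of those above the background percentile were called lower). Ctns, the cystine exporter of the lysosome, had 11.21, 12.94, 12.38 and 12.53 in regenerated, 9.27, 7.54 and 8.80 in castrated and 13.22, 13.05 and 12.12 in intact arrays. Its castrated arrays lay far below the other groups, which overlapped. Ctns fell by 19.1-fold in castrated against intact arrays (-4.26 ± 0.53 SE, adjusted p = 0.00121) and was higher in regenerated than in castrated arrays (3.73 ± 0.50 SE, adjusted p = 0.0021). Sort1, a sorting receptor for lysosomal enzymes, fell in castrated arrays (-1.53 ± 0.26 SE, adjusted p = 0.00541). It was higher in regenerated than in castrated arrays (1.19 ± 0.24 SE, adjusted p = 0.0187), a call that ended without castrated replicate 2 (0.0805) or 3 (0.0528) or regenerated replicate 2 (0.0575) or 3 (0.0564). The third was Igf2r, the mannose 6-phosphate receptor (-1.25 ± 0.34 SE, adjusted p = 0.0482), whose call ended in 8 of the 10 fits that left out an array.

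Of 15 subunits and partners of the V-ATPase, the proton pump that acidifies lysosomes, 3 fell in castrated against intact arrays (20%, where 3.19% of all genes and 6.3% of those above the background percentile were called lower). The median was -0.71, against 0.04 for all genes. Atp6v0a1, a membrane subunit, had 9.49, 9.69, 9.38 and 9.59 in regenerated, 8.22, 7.89 and 7.46 in castrated and 10.19, 9.68 and 9.40 in intact arrays. It fell in castrated against intact arrays (-1.90 ± 0.27 SE, adjusted p = 0.00209) and was higher in regenerated than in castrated arrays (1.68 ± 0.25 SE, adjusted p = 0.00373). The others were Atp6v0a2 (-1.99 ± 0.41 SE, adjusted p = 0.016, or 0.0532 to 0.0751 without intact replicate 1 or 2 or castrated replicate 2 or 3) and Atp6ap1 (-1.69 ± 0.41 SE, adjusted p = 0.031, or 0.0653 to 0.121 without any intact array or castrated replicate 2 or 3).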

How the data were processed

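Sorted luminal cells gave RNA for 10 Affymetrix ClariomD arrays, 1 per sample. Per the submitters' processing notes, the authors used RMA and Affymetrix Expression Console, and the deposited table holds log2 values. The versions and the genome build are not given in the sources used here. Because RMA makes the distributions of the arrays alike, a shift common to all transcripts would be reduced. All columns were used. Replicate columns differed (highest correlation within a group 0.996).

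Of 65956 non-control rows, 30604 carried 1 symbol, through the platform annotation updated by gene identifier against RefSeq for 827 symbols. For 355 genes with several rows, none of them among the 43 described, the row with the highest mean was kept, giving 30142 genes. All of them entered the fit (limma 3.58.1, R 4.3.3: lmFit, eBayes with trend, 3 groups, no covariate), with two-sided tests and Benjamini-Hochberg adjustment within each comparison. The script was tested on simulated data. The number of arrays limits the precision.

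The genes and lists were chosen with earlier results of these data known. Array values are given for members called by at least 1 log2 unit, up to 3 further called members per role and the largest change in a role with none, and up to 4 called genes are named per broader list. Atg5, Ctsh, Hexa, Npc1, Sqstm1 and Tfeb were shown in more comparisons than this rule asks, after their values were seen. Same-numbered replicates did not pair: correlations of their deviations from group means were -0.11, 0.26 and -0.02 between castrated and intact arrays. Alternatives covered the prior, array weights, filters, row choice, centring, pairwise fits, a replicate block and leaving out each array. Listed genes without a row of their own were not analysed here.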

Additional observations from a re-analysis of the deposited data

Results flagged for a closer look

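In 4 of the 43 genes a regenerated array lay far from the other 3 of its group, by Dixon's ratio of the gap to the range. Chance alone marks about 1 in 20 groups tested, so some of the 43 would be marked by chance. The share over all genes is not given here. Atg14, a subunit of the lipid kinase complex, had 5.70 in regenerated replicate 4, against 6.90 to 7.08 in the others. Atg10 had 5.93 in regenerated replicate 2, against 6.89 to 7.0. Atg4c had 7.20 in regenerated replicate 1, against 6.75 to 6.76. Tfeb had 4.43 in regenerated replicate 2, against 4.60 to 4.63, all under the background percentile.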

How the results depend on the processing

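No called change reversed direction under any of the 20 alternatives. The counts below are given without the share of all genes called under the same alternative. They describe how stable the calls were, and whether the members moved more than other genes was not tested. Between castrated and intact arrays the 9 called genes, all machinery, numbered 16 with array weights (3 of them lysosomal) and 5 when every non-control row was tested (5 machinery). Testing every row ended the calls of Wipi2, Atg10, Gabarapl1 and Nbr1 (adjusted p = 0.0693 to 0.0943), and fitting only the compared groups ended those of Wipi2 (0.0809) and Nbr1 (0.061). Lysosomal calls, 0 in the model used, numbered 1 among genes above the background percentile and 2 when only the compared groups were fitted. Leaving out each array gave 3 to 15 calls in all, 3 to 12 in the machinery and 0 to 3 among lysosomal genes. Between regenerated and castrated arrays the 6 calls, all machinery, numbered 3 when only the compared groups were fitted and 3 when every row was tested, both without Atg10 (adjusted p = 0.0503 and 0.0516), Atg4d (0.088 and 0.0797) and Nbr1 (0.111 and 0.0928). Lysosomal calls, 0 in the model used, numbered 2 with array weights and 1 among genes above the background percentile. Leaving out each array gave 2 to 10 calls in all, 2 to 8 in the machinery and 0 to 2 among lysosomal genes. The cause of these moves was not tested. With the replicate number as a block, which pairs the arrays only by a number, the calls between castrated and intact arrays were 11 (1 lysosomal), between regenerated and castrated 7, and between regenerated and intact 0. The block ended the castration call of Wipi2 (adjusted p = 0.0783) and the regeneration calls of Nbr1 (0.066) and Neu1 (0.0606). Between regenerated and intact arrays every alternative gave 0. Wipi1 and Atg4a kept their calls in both comparisons under all 20, and Atg9a in castrated against intact arrays. The 3 members under the background percentile, Tfeb, Atg9b and Map1lc3a, could hold compressed changes. So could Atg16l1, Atg16l2 and Tfe3, whose group means lay under the highest background control value of 6.40. The castrated values of Atg9a and Atg4d also lay under that value, so their changes could be compressed too.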
